A study of Mus musculus with 6 samples.

Results

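The genes described here encode the proteasome, its regulatory caps, its activators and the chaperones that assemble it. They are all genes whose only symbol on the array starts with Psma, Psmb, Psmc, Psmd, Psme, Psmf or Psmg, which gave 50 of the 19938 named genes, each represented by its brightest probe set. Expression was measured in the gastrocnemius, a mixed calf muscle rich in fast fibres, of male mice aged 12 weeks, on 1 Affymetrix array per mouse. There were 3 wild type mice and 3 Sparc knockout mice, whose genotype the labels call homogenous, and the labels give both genotypes the strain B6;129S-Sparctm1Hwe/J, a mixed background of B6 and 129S. The labels name no tissue-specific driver for the knockout, and give no litter. Intensities are given on the log2 scale.

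The proteasome is the main machine that degrades ubiquitin-tagged proteins in the cytosol and nucleus. Its barrel-shaped core, the 20S particle, stacks rings of alpha subunits, which gate the entrance, on rings of beta subunits, some of which cut peptide bonds. The 19S cap binds the ubiquitin chain, removes it, unfolds the substrate with a ring of ATPases and threads it into the core. Under interferon, cells replace the constitutive catalytic beta subunits by the immunoproteasome subunits, which favour peptides suited to MHC class I. In muscle the proteasome takes part in the turnover of contractile proteins, and its subunit genes are known to be induced together in several forms of atrophy.

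The arrays fitted their labels: Sparc read 11.73 to 11.87 in the wild types and 5.83 to 6.74 in the knockouts. The dimmest of the 8 skeletal muscle fibre markers lay at percentile 99.2 of all probe sets. The median SD per proteasome gene was 0.0646 in the wild types and 0.106 in the knockouts, against 0.0912 and 0.163 over all 16487 genes tested.

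Most proteasome genes read slightly lower in knockout muscle, and 1 of the 50, the cap subunit gene Psmd6, passed the test over all genes. Of the 50 genes, 44 had a negative and 6 a positive change, with a median of -0.15, or 9.81% lower. The median over all genes tested was 0.00. At an adjusted p under 0.05, 1 member was lower and 0 were higher, while 0.995% of all genes passed in either direction. At an unadjusted p under 0.05, 16 members were lower (32.0%) and 0 were higher, beside 10.3% of all genes lower and 8.16% higher. Without wild type arrays 1, 2 and 3 in turn, 9, 7 and 6 members were lower at that p, beside 7.21%, 6.34% and 6.46% of all genes. The groups were fully apart, with the 3 knockout arrays on the lower side in 26 members and on the upper side in 0, beside 13.8% and 11.1% of all genes. All 50 genes passed the filter on dim probe sets at 3.90, the testis-type alpha subunit gene Psma8 and the thymus-type beta subunit gene Psmb11 only just, with means of 4.22 and 3.91.

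**Figure D1:**
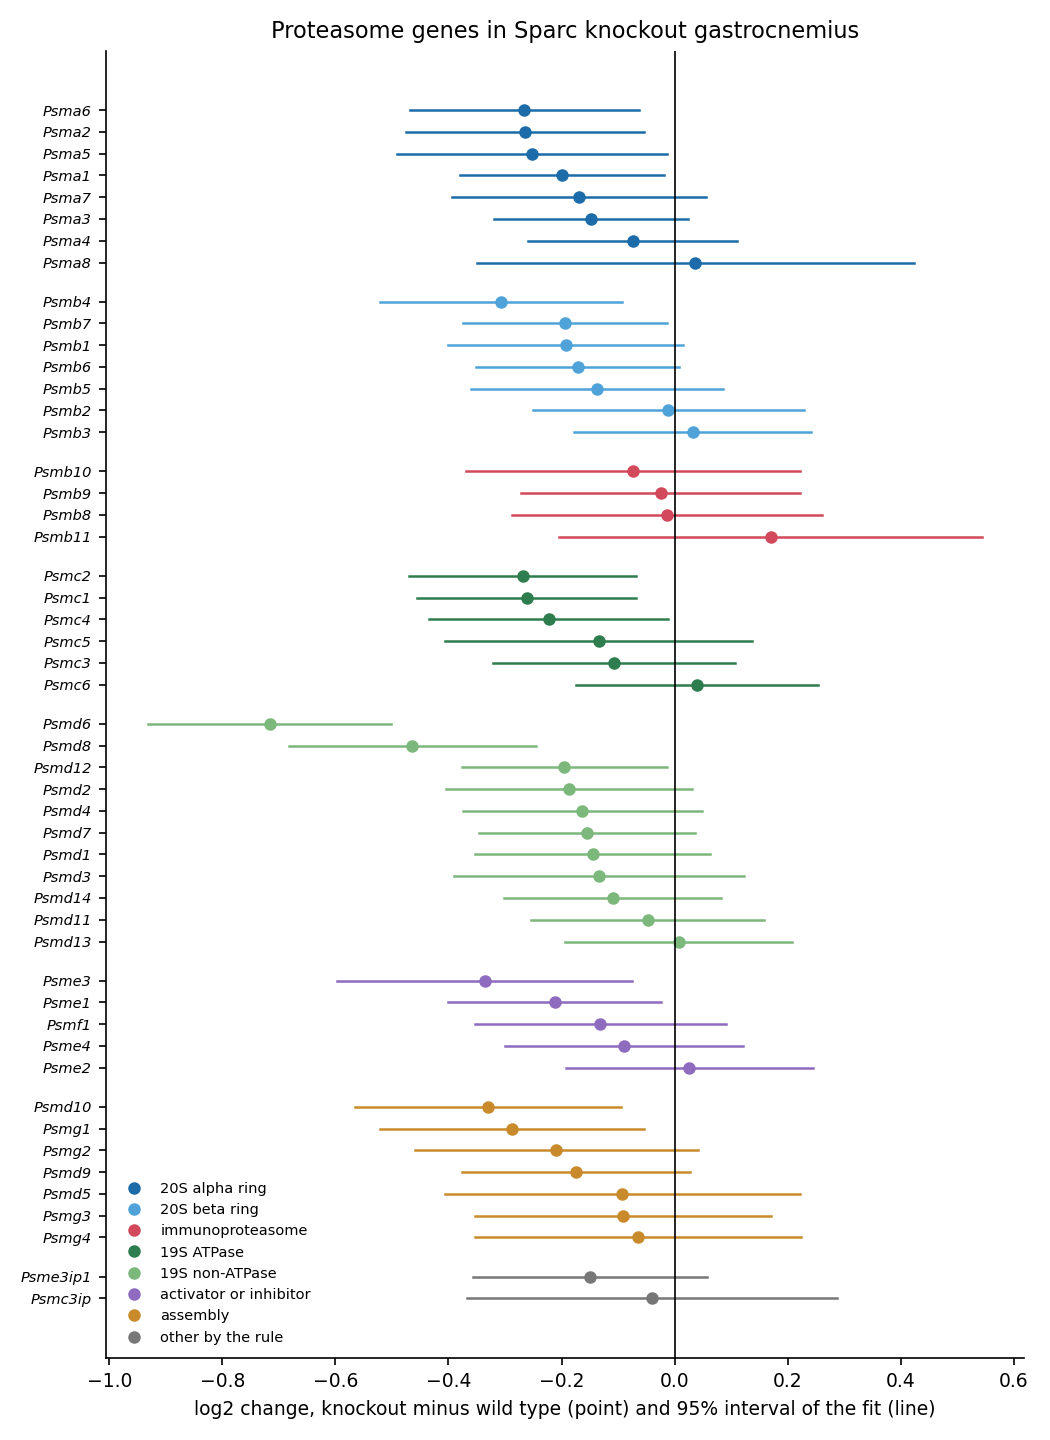
Log2 change of each of the 50 genes, knockout minus wild type (horizontal axis, log2 units), with the 95% interval of the limma fit, grouped by role. Psmd6 at -0.72 and Psmd8 at -0.46 lie farthest to the left, most other core and cap genes lie to the left of 0 by less, and the immunoproteasome genes Psmb8, Psmb9 and Psmb10 lie near 0.

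Bright genes in general read a little lower in the knockouts, and most proteasome genes are bright. Over the 3431 genes with a mean of 8 or more on the log2 scale, the median change was -0.06 and 19.3% were lower at an unadjusted p under 0.05. Of these 3431 genes, 2076 had a negative change. The knockouts lay wholly below the wild types in 812 of them and wholly above in 449. The 35 members in that range had a median of -0.17, and 14 of them (40.0%) were lower at that p. Of these 35, 32 had a negative change, and the knockouts lay wholly below in 22 and wholly above in 0. The 15 members under a mean of 8 had a median of -0.07, and 2 of them were lower at that p. Between 9 and 10, where 14 members lie, their median was -0.19 and that of all 939 genes was -0.09. After cyclic loess, a normalization that removes such a trend, the median of all 50 members was -0.11 and 10 of them (20%) were lower at an unadjusted p under 0.05, beside 9.36% of all genes. The share among genes with a mean of 8 or more was not taken after cyclic loess.

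**Figure D2:**
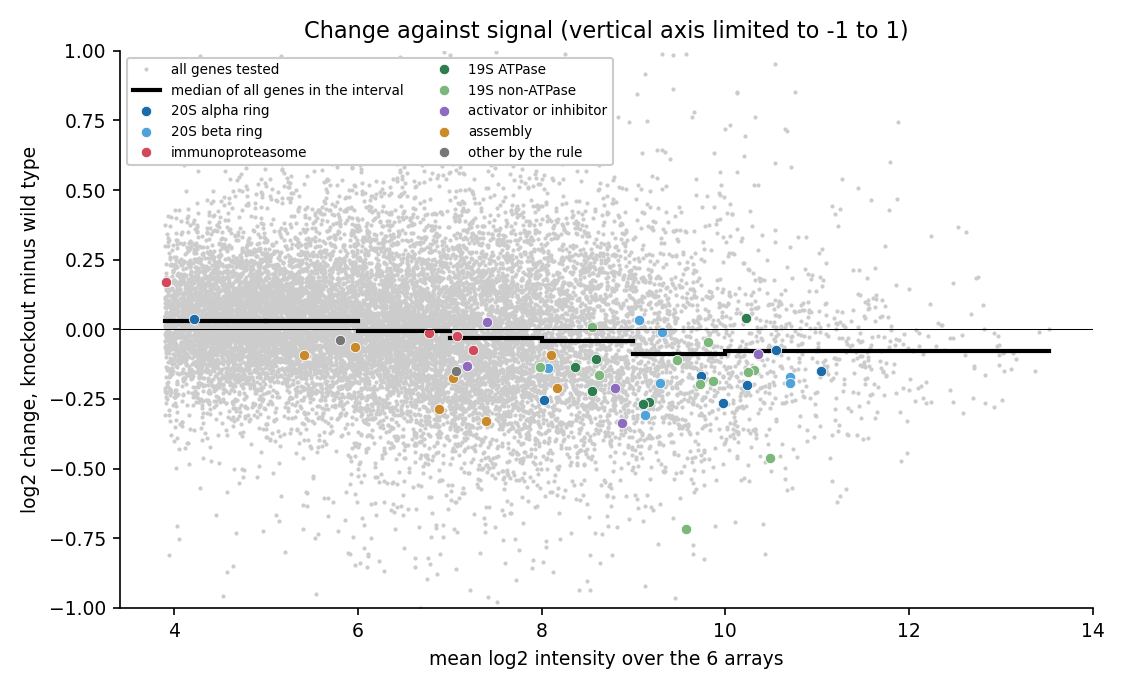
Log2 change, knockout minus wild type (vertical axis), against the mean log2 intensity over the 6 arrays (horizontal axis), for all genes tested (grey) and the proteasome genes (coloured by role); black lines are the medians of all genes within intervals of intensity. The medians fall from 0.03 among the dimmest genes to -0.09 between 9 and 10, and most proteasome genes lie below the line of their interval.

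Most alpha ring genes read slightly lower in the knockouts. Of the 8 genes 7 had a negative change, 4 were lower at an unadjusted p under 0.05, 0 passed over all genes, and the knockouts lay wholly below the wild types in 6. Of all genes tested, 10.3% were lower at that p, and in 13.8% the knockouts lay wholly below. Among the 3431 genes with a mean of 8 or more, 19.3% were lower at that p and 812 lay wholly below. Psma6 read 10.23, 10.01 and 10.10 in wild type arrays 1, 2 and 3 and 9.83, 9.87 and 9.84 in knockout arrays 1, 2 and 3, a change of -0.27 ± 0.09 (SE; adjusted p = 0.166). Psma2 read 9.25, 9.21 and 9.30 against 9.06, 9.04 and 8.86, a change of -0.27 ± 0.09 (SE; adjusted p = 0.182). For Psma1 the values were 10.35, 10.34 and 10.31 against 10.15, 10.18 and 10.08 (-0.20 ± 0.08, SE; adjusted p = 0.232). In all 3 genes the groups were apart without overlap, but none passed the threshold over all genes. Psma5 (-0.25), Psma7 (-0.17) and Psma3 (-0.15) were apart in the same way, and Psma4 (-0.07) and Psma8 (0.04) overlapped. The other probe sets of Psma3, at -0.13 and -0.15, and of Psma5, at -0.16, had the same sign as the brightest one.

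Among the 7 beta ring genes 6 changes were negative, 2 of them at an unadjusted p under 0.05, and 0 passed over all genes. The 2 are 28.6% of the ring, beside 10.3% of all genes and 19.3% of genes with a mean of 8 or more. The knockouts lay wholly below the wild types in 4 of the 7, beside 13.8% of all genes and 812 of the 3431 genes with a mean of 8 or more. Psmb4, a structural beta subunit, read 9.38, 9.24 and 9.22 in the wild types and 8.87, 9.01 and 9.04 in the knockouts (-0.31 ± 0.09, SE; adjusted p = 0.143). The 3 constitutive catalytic subunits had smaller changes. Psmb7, which carries the trypsin-like activity, read 10.81, 10.82 and 10.79 against 10.63, 10.66 and 10.54 (-0.19 ± 0.08, SE; adjusted p = 0.242). Psmb6, the caspase-like subunit, read 10.80, 10.73 and 10.84 against 10.58, 10.63 and 10.64 (-0.17 ± 0.08, SE; adjusted p = 0.292). Psmb5, the chymotrypsin-like subunit and target of the drug bortezomib, read 8.18, 8.07 and 8.18 against 8.06, 7.87 and 8.09 (-0.14 ± 0.10, SE; adjusted p = 0.51). The knockouts were wholly below the wild types for Psmb7 and Psmb6, and the groups overlapped for Psmb5. Psmb1 had the third most negative change of the ring, -0.19 (adjusted p = 0.309), also without overlap. Psmb2 and Psmb3 were near 0, at -0.01 and 0.03. The probe sets of Psmb3 disagreed: the dimmer one was at -0.18, with the knockouts below the wild types, so the direction of Psmb3 is uncertain.

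The most negative changes were those of Psmd6 and Psmd8, both in the lid of the 19S cap, the part that carries the deubiquitinase. Psmd6, the lid subunit also called Rpn7, read 9.94, 9.88 and 9.97 in the wild types and 9.08, 9.21 and 9.34 in the knockouts. It fell by 0.72 on the log2 scale, or 1.64-fold (SE 0.095, adjusted p = 0.0147; 95% interval -0.93 to -0.50). Every knockout array lay well below every wild type array, by more than the range within either group. The call was lost when any wild type array was left out, with changes of -0.71, -0.74 and -0.70 and adjusted p-values of 0.0929, 0.097 and 0.126 without wild type arrays 1, 2 and 3, and it held without any single knockout array. Psmd8, the lid subunit also called Rpn12, read 10.71, 10.67 and 10.78 against 10.10, 10.36 and 10.31. Its change of -0.46 ± 0.10 (SE; adjusted p = 0.0647) was the second most negative of all members and did not pass. It passed without knockout array 2 (-0.52, adjusted p = 0.0239) and with array weights (-0.42, adjusted p = 0.0466). Those settings called 1019 and 329 genes over all genes, against 164 in the main analysis.

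The other 9 non-ATPase cap genes lay between -0.19 and 0.01. Psmd12, a lid subunit, read 9.82, 9.85 and 9.80 against 9.63, 9.65 and 9.59 (-0.19 ± 0.08, SE; adjusted p = 0.241), with little spread in either group and no overlap. Psmd2, a scaffold of the cap's base, was at -0.19 and its dimmer probe set at -0.20. The ubiquitin receptor gene Psmd4 was at -0.16, Psmd7 at -0.15 and Psmd14, the deubiquitinase of the lid, at -0.11. Psmd1 was at -0.14, Psmd3 at -0.13, Psmd11 at -0.05 and Psmd13 at 0.01. Over all 11 non-ATPase genes 10 changes were negative, 3 at an unadjusted p under 0.05, and 1 passed over all genes. The 3 are 27.3% of the class, beside 10.3% of all genes and 19.3% of genes with a mean of 8 or more.

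The promoter sequences of Psmd6 and Psmd8 are shown because these are the members with the largest changes. They are the 250 bases before the start of each gene, from RefSeq on GRCm38.p6, 5′ to 3′ on the gene's strand: chr14:14120946-14121195 (minus strand) for Psmd6 and chr7:29180674-29180923 (minus strand) for Psmd8. Capitals mark CGGAAG or its complement CTTCCG, the core that ETS-family factors bind, at bases 44 to 39 before the start of Psmd6 and 16 to 11 before that of Psmd8.
Psmd6: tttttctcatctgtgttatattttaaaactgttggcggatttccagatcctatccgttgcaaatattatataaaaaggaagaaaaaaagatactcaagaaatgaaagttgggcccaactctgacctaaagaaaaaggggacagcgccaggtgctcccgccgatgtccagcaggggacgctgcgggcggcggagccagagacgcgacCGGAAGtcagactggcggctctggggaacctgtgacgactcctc
Psmd8: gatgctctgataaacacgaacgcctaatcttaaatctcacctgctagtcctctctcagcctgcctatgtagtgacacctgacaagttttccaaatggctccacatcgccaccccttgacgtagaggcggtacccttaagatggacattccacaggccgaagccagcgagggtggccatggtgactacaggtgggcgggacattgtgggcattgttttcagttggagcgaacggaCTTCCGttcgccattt

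A promoter was at hand for 42 of the 50 members, and none for Psma8, Psmb1, Psmb2, Psmb7, Psmc3, Psmd3, Psmd7 and Psmg2. The ETS core, searched on both strands and added to the search after the sequences were read, was present in 20 of the 42 (47.6%). It was present in 15.3% of all 27025 genes with a promoter in the table and in 29.4% of the 2797 of them with a mean of 8 or more on these arrays. The median GC content was 57.6% in the members' windows and 52.4% in all windows. Members with the core had a median change of -0.15 and members without it also one of -0.15. NRF1 and NRF2 bind the antioxidant response element core TGANNNNGC with small MAF proteins, and through it NRF1 induces proteasome genes when proteasome activity is short. This core was in 18 of 42 members (42.9%), in 38.7% of all genes and in 41.1% of genes with a mean of 8 or more. Its members had a median of -0.12, and those without it of -0.18. The CCAAT box was in 16 members (38.1%), against 37.5% of all genes and 38.9% of genes with a mean of 8 or more. The median was -0.17 in the members that hold it and -0.14 in the others. These matches describe letters in a window and not bound sites.

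The 6 ATPases of the cap, which unfold substrates, had a median change of -0.18, with 5 negative changes. At an unadjusted p under 0.05, 3 were lower (50%), beside 10.3% of all genes and 19.3% of genes with a mean of 8 or more. Of the 6 ATPases, 0 passed over all genes. Psmc2 read 9.24, 9.23 and 9.24 in the wild types and 8.86, 9.04 and 9.003 in the knockouts (-0.27 ± 0.09, SE; adjusted p = 0.16). Psmc1 read 9.28, 9.32 and 9.31 against 8.97, 9.13 and 9.03 (-0.26 ± 0.09, SE; adjusted p = 0.159), and its dimmer probe set was at -0.32. Psmc4 read 8.60, 8.68 and 8.71 against 8.34, 8.44 and 8.54 (-0.22 ± 0.09, SE; adjusted p = 0.251). These 3 genes, named for their smallest p, were apart without overlap, and knockout array 1 was the lowest in each. Of all genes tested, 13.8% lay wholly below, as did 812 of the 3431 genes with a mean of 8 or more. Psmc5 at -0.13, Psmc3 at -0.11 and Psmc6 at 0.04 overlapped between the groups.

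**Figure D3:**
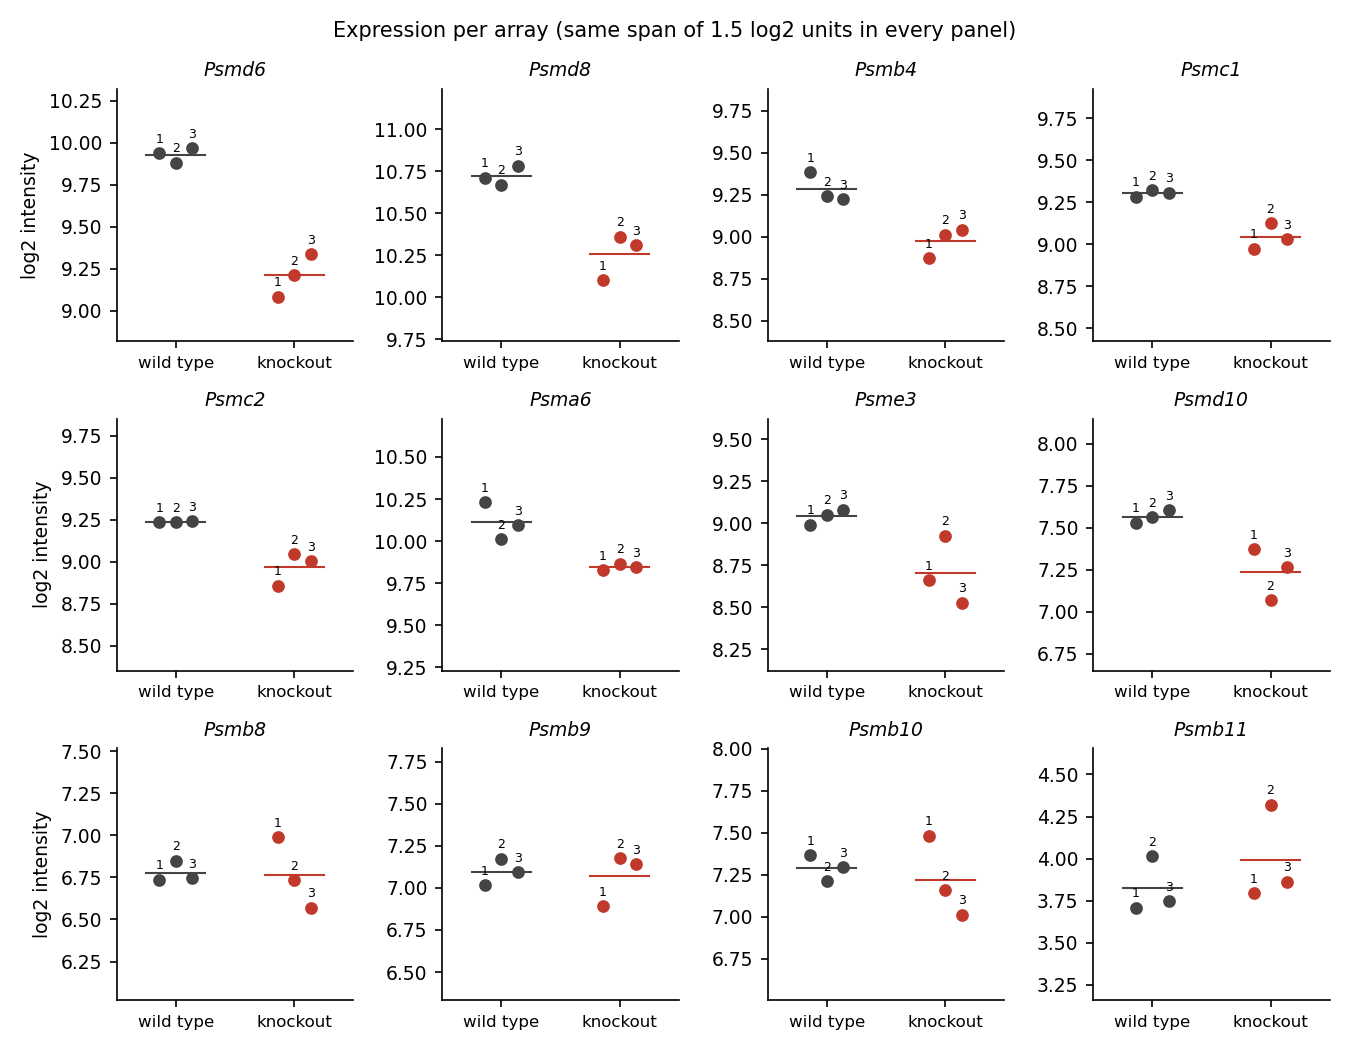
Log2 intensity (vertical axis) on each of the 3 wild type arrays (grey) and 3 knockout arrays (red) for 12 members; small digits are replicate numbers, horizontal bars are group means, and every panel spans 1.5 log2 units. The groups are apart in the first 8 panels, from Psmd6 to Psmd10, and overlap in the last 4, Psmb8 to Psmb11. The first 8 panels show the members with the smallest p, so their separation follows in part from that choice. Over all 50 members the groups overlap in 24.

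The inducible immunoproteasome genes lay near 0. Psmb8, the inducible counterpart of Psmb5, read 6.74, 6.85 and 6.74 in the wild types and 6.99, 6.73 and 6.57 in the knockouts, so that the knockouts spread to both sides of the wild types. Its change was -0.01 (95% interval -0.29 to 0.26; adjusted p = 0.97). Psmb9, the counterpart of Psmb6, read 7.02, 7.17 and 7.09 against 6.89, 7.18 and 7.14, a change of -0.02 (-0.27 to 0.22; adjusted p = 0.94). Psmb10, the counterpart of Psmb7, read 7.37, 7.21 and 7.30 against 7.48, 7.16 and 7.01, a change of -0.07 (-0.37 to 0.22; adjusted p = 0.826). Each of the 3 overlapped, and the sign of each turned under at least 1 alternative setting. The intervals include changes as large as those of the constitutive subunits, so a change of that size was not excluded. Psmb11, normally made by the thymic cortex, read 3.71, 4.01 and 3.75 against 3.79, 4.32 and 3.86, and stayed close to the dim limit on every array.

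The difference between each inducible subunit and its constitutive counterpart on the same array was also compared between genotypes, for 3 pairs. Relative to the wild type mean, Psmb8 minus Psmb5 was 0.12 higher in the knockouts, at 0.30, 0.23 and -0.15 on knockout arrays 1, 2 and 3, beside an SD of 0.13 among the wild types. Psmb9 minus Psmb6 was 0.15 higher and Psmb10 minus Psmb7 0.12 higher. The exact two-sided permutation p-values were 0.5, 0.2 and 0.6, each 0.6 after adjustment over the 3 pairs, where 0.1 is the smallest that 3 against 3 allows. With that limit the test could not pass 0.05, so it does not settle whether the pairs differed.

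Immunoproteasome genes are abundant in leukocytes, and macrophage markers read higher in the knockouts. All 14 macrophage markers had a positive change (median 0.65), and 0 passed over all genes. In 10 of them the knockouts lay wholly above the wild types, beside 11.1% of all genes. Cd68, a lysosomal macrophage protein, was at 0.99 and the lysozyme gene Lyz2 at 0.85 (adjusted p = 0.0858 and 0.107). Their summed intensity was 2516 to 2795 in the wild types and 3493 to 6309 in the knockouts, and none was at 0. Their median deviation was 1.27, 0.40 and 0.31 on knockout arrays 1, 2 and 3, and that of Psmb8, Psmb9 and Psmb10 was 0.19, -0.04 and -0.21. Psmb8 and Psmb10 were highest on array 1, as the macrophage markers were, while Psmb9 was lowest there. The part of macrophages in the immunoproteasome values was not tested. Of the 11 lymphocyte markers found, 4 were too dim to test. The 7 tested had a median of 0.03, with 4 positive and 3 negative changes. Those with the smallest p were Cd4 at 0.83 and Ptprc, the pan-leukocyte antigen CD45, at 0.48 (adjusted p = 0.0971 and 0.196).

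The promoters of Psmb8 and Psmb9 are shown because interferon is known to induce both genes. In RefSeq order they lie in the MHC region as neighbours of the peptide transporter genes, Psmb9 next to Tap1 and Psmb8 between Tap1 and Tap2. The windows are chr17:34197945-34198194 (plus strand) for Psmb8 and chr17:34187331-34187580 (minus strand) for Psmb9, on GRCm38.p6. Capitals mark in Psmb8 a gamma-activated site, TTCNNNGAA, at bases 97 to 89 before the start, and in Psmb9 the antioxidant response element core at bases 60 to 52 and a CCAAT box, read on the other strand, at bases 8 to 4.
Psmb8: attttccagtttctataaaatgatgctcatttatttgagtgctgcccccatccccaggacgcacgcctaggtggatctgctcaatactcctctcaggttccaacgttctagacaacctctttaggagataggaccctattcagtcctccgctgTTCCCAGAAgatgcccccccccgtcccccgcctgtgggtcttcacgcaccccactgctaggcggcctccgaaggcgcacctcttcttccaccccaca
Psmb9: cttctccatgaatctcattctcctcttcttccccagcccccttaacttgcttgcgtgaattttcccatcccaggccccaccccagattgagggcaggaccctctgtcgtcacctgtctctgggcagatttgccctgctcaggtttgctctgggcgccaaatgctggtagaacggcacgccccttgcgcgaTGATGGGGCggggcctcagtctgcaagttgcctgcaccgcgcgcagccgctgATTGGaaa

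A gamma-activated site was in 2 of 42 members (4.76%), Psmb8 and Psmg1, in 8.13% of all genes and in 6.47% of genes with a mean of 8 or more. The core of the interferon-stimulated response element, GAAANNGAA, was in 3 members (7.14%), Psmb3, Psmd4 and Psmd9. It was in 8.18% of all genes and in 7.44% of genes with a mean of 8 or more. Genes of class I antigen processing, of which 10 of the 12 listed were found, had a median change of -0.03 with 0 past the threshold over all genes. Tap1 and Tap2, the neighbours of Psmb8, were at -0.03 and -0.06, and the class I light chain gene B2m was at -0.0020. Canx and Pdia3, chaperones of the endoplasmic reticulum, were at 0.45 and 0.33 (adjusted p = 0.103 and 0.404). Of 12 interferon response genes 0 passed, with a median of -0.10. Rsad2 was at -0.95 and Irf1 at 0.21 (adjusted p = 0.0528 and 0.3).

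Of the 5 activator and inhibitor genes 4 had a negative change, and 0 passed over all genes. Psme3, whose product is the nuclear activator PA28 gamma, read 8.99, 9.05 and 9.08 in the wild types and 8.66, 8.93 and 8.53 in the knockouts (-0.34 ± 0.11, SE; adjusted p = 0.173). Without knockout array 2, the highest of the knockouts, its change was -0.45 and passed (adjusted p = 0.0348). That setting called 1019 of 16497 genes and 3 of 49 members, against 164 genes and 1 member in the main analysis. Psme1 and Psme2 encode the partner subunits of the interferon-inducible activator PA28 alpha-beta. Psme1 read 8.92, 8.92 and 8.88 against 8.70, 8.74 and 8.65, without overlap (-0.21 ± 0.08, SE; adjusted p = 0.222). Psme2 read 7.42, 7.37 and 7.39 against 7.55, 7.32 and 7.39, with overlap (0.03 ± 0.10, SE; adjusted p = 0.927), and its sign turned under some settings. The difference between Psme1 and Psme2 was not tested. Psme4, the large activator PA200, read 10.37, 10.38 and 10.45 against 10.17, 10.42 and 10.34 (-0.09 ± 0.09, SE; adjusted p = 0.671). Psmf1, the proteasome inhibitor PI31, read 7.23, 7.32 and 7.22 against 7.07, 7.26 and 7.04 (-0.13 ± 0.10, SE; adjusted p = 0.53).

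All 7 assembly chaperone genes had a negative change, with a median of -0.17, and 0 passed over all genes. Psmd10, gankyrin, which helps to assemble the cap's base, read 7.53, 7.56 and 7.60 in the wild types and 7.37, 7.07 and 7.27 in the knockouts (-0.33 ± 0.10, SE; adjusted p = 0.148). Psmg1, a chaperone of the alpha ring, read 7.14, 6.94 and 6.98 against 6.86, 6.66 and 6.68 (-0.29 ± 0.10, SE; adjusted p = 0.189). Psmd9, another base chaperone, read 7.12, 7.17 and 7.09 against 6.89, 7.02 and 6.96 (-0.17 ± 0.09, SE; adjusted p = 0.341). All 3 were apart without overlap, as was Psmg2, the partner of Psmg1, at -0.21. The 3 were named for their smallest p, so their separation follows in part from that choice. The knockouts lay wholly below in 4 of the 7 genes, beside 13.8% of all genes. At an unadjusted p under 0.05, 2 of the 7 were lower (28.6%), beside 10.3% of all genes. Psmg3 (-0.09), Psmd5 (-0.09) and Psmg4 (-0.06) overlapped. The symbols Psmc3ip and Psme3ip1 also met the rule but are named for partner proteins, Psmc3ip being a meiotic recombination factor. They were at -0.04 and -0.15, and neither passed.

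**Figure D4:**
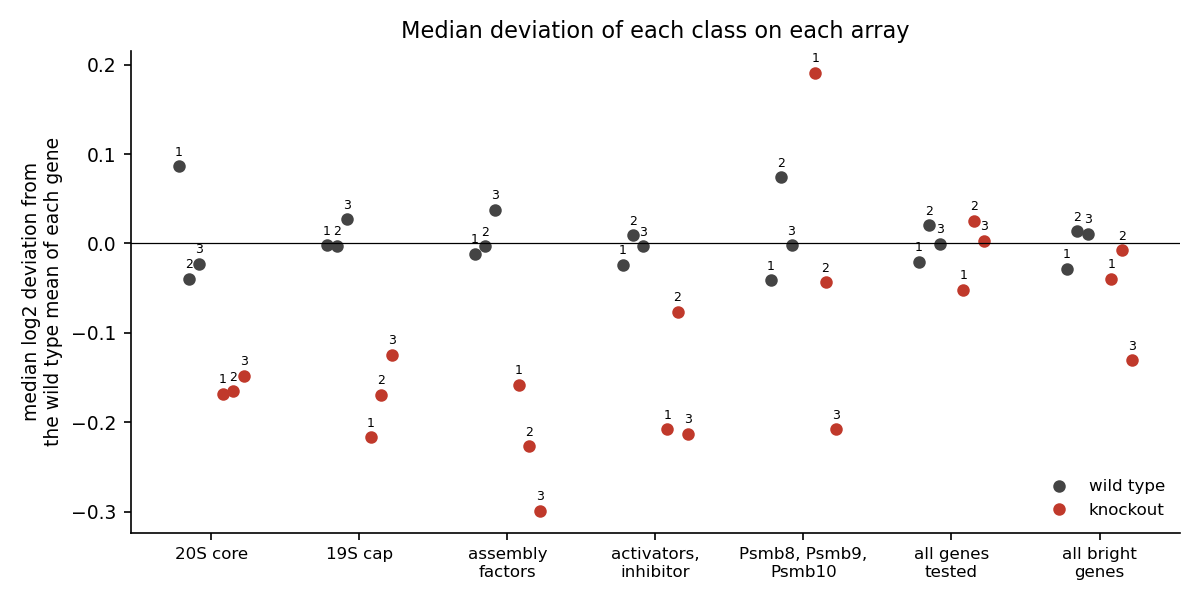
Median log2 deviation from each gene's wild type mean (vertical axis) on every array, for the core, the cap, the assembly factors, the activators with the inhibitor, Psmb8 with Psmb9 and Psmb10, all genes tested and all genes with a mean of 8 or more; digits are replicate numbers. The 3 knockout arrays lie below the 3 wild type arrays for the first 4 classes, and spread from -0.21 to 0.19 for the 3 immunoproteasome genes.

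By array, the core stood at -0.17, -0.16 and -0.15 on knockout arrays 1, 2 and 3 and at 0.09, -0.04 and -0.02 on the wild types. The core's median was thus nearly the same on every knockout array. Single core genes could differ more, such as Psmb2, at 9.33, 9.45 and 9.15 on knockout arrays 1, 2 and 3. The cap stood at -0.22, -0.17 and -0.12, and its ATPases at -0.30, -0.18 and -0.08. The assembly genes, at -0.16, -0.23 and -0.30, were lowest on array 3, where the ATPases were highest. Knockout array 1 was the lowest knockout in 22 of the 50 members, array 2 in 13 and array 3 in 15. All genes tested stood at -0.05, 0.03 and 0.00 on the knockout arrays, and all genes with a mean of 8 or more at -0.04, -0.01 and -0.13, lowest on array 3.

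Apart from the testis-type Psma8, the core and cap genes are made by every cell. In whole muscle, fewer cells of a type and less RNA per cell therefore cannot be told apart. Of the 8 fibre markers 6 had negative changes, with a median of -0.11 and 0 past the threshold. The knockouts lay wholly below the wild types in 6 of the markers and wholly above in 1. Among the 3431 genes with a mean of 8 or more, these were 812 and 449. Ckm, muscle creatine kinase, was at -0.28 and the myosin gene Myh1 at 0.43 (adjusted p = 0.133 and 0.218). The summed intensity of the 8 fibre markers was 63211 to 63870 in the wild types and 57262 to 61933 in the knockouts, and none was at 0. The 7 fibroblast markers all had positive changes, with a median of 0.62 and a summed intensity of 10366 to 11477 against 11667 to 15791, and 0 passed. Pi16, a marker of adventitial fibroblasts, was at 0.62 and the proteoglycan gene Lum at 0.84 (adjusted p = 0.153 and 0.156). Endothelial markers had a median of 0.06 over 8 genes, 5 with a positive and 3 with a negative change, and 0 passed. Those with the smallest p were Egfl7 at 0.21 and Pecam1 at 0.19 (adjusted p = 0.423 and 0.613). The median deviation of the endothelial markers was 0.22, 0.34 and -0.34 on knockout arrays 1, 2 and 3. The part of the cell mix in the proteasome values was not tested.

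Most partners of the proteasome whose symbols do not start with the family's prefixes also had a negative change. Of 29 such genes 20 were found, 17 of them with a negative change, with a median of -0.10. At an unadjusted p under 0.05, 4 were lower (20%) and 0 higher, beside 10.3% of all genes lower and 19.3% of genes with a mean of 8 or more, and 0 passed over all genes. Sem1, the smallest subunit of the lid, read 10.13, 9.91 and 9.98 in the wild types and 9.71, 9.63 and 9.79 in the knockouts (-0.29 ± 0.09, SE; adjusted p = 0.155). Pomp, the chaperone that matures the core, read 9.85, 9.69 and 9.81 against 9.48, 9.52 and 9.65 (-0.23 ± 0.09, SE; adjusted p = 0.229). Both were apart without overlap. The knockouts lay wholly below in 7 of the 20 partners, beside 13.8% of all genes and 812 of the 3431 genes with a mean of 8 or more. The transcription factor genes Nfe2l1 and Nfe2l2, which encode NRF1 and NRF2, were at -0.06 and -0.10 and overlapped. Usp14 and Uchl5, deubiquitinases that dock on the cap, were at -0.02 and -0.06, and Vcp, the unfolding ATPase that feeds substrates to the proteasome, was at -0.11.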

How the data were processed

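The authors deposited linear intensities per probe set and array. The submitters' processing notes name RMA and, as its software, Expression Console 1.3.0.187 of Affymetrix. RMA shrinks differences between low values, so changes of dim genes can be understated. Precision is limited by the number of arrays. For the probe sets' genome build, nothing is stated in the sources used here.

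Log2 was taken with no offset. Probe sets with 1 symbol in the platform annotation were used, the brightest per gene, and genes were dropped as dim where their mean fell in the lowest 25% of probe sets, leaving 16487. All 50 members matched RefSeq (GRCm38.p6) by Entrez ID. Genotypes were compared over all genes with limma 3.58.1 in R 4.3.3 (eBayes, its prior variance following mean expression, two-sided tests, Benjamini-Hochberg, threshold 0.05), and the procedure was tested on simulated data. Errors marked SE are moderated standard errors. Paired subunits were compared with an exact permutation test. Alternatives changed the filter, the normalization, the offset, the variance model and the arrays used; cyclic loess was chosen after seeing the data.

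The members, the related lists and the tests were chosen with earlier results of these data known. Named in full were members past the threshold, the catalytic and inducible subunits, the activators and Psmf1, the 3 members of each other class and the 2 genes of each related list with the smallest p. Psmd4, Psmd7, Psmd14, Tap1, Tap2, B2m, Nfe2l1, Nfe2l2, Usp14, Uchl5, Vcp and the members given by their change alone were added after their values were seen. Each array counts as 1 mouse. No label says that the samples came from separate litters, so p-values measure the spread between these samples.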

Additional observations from a re-analysis of the deposited data

How the results depend on the processing

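Over 17 alternatives, 16 planned and 1 added after the data were seen (cyclic loess), 44 of 50 members were negative in the main analysis and 41 to 49 under the alternatives, and no member named in full other than Psmb8, Psmb9, Psmb10 and Psme2 changed sign. Members called numbered 0 to 3 with 1 array left out (genes called 27 to 1019), and both counts were highest without knockout array 2. Array weights called 2 members (329 genes), and median centring called 103 genes. Members at an unadjusted p under 0.05 numbered 6 to 16 with 1 array left out: 9, 7 and 6 without wild type arrays 1, 2 and 3 (18.0%, 14.3% and 12.0% of members, lower, against 7.21%, 6.34% and 6.46% of all genes). There were 10 after a second quantile normalization or cyclic loess. The core's median was -0.11 after cyclic loess. The cap's was -0.20 after median centring, -0.12 after a second quantile normalization and -0.10 after cyclic loess. With 1 array left out, the assembly median ran from -0.23 to -0.15 and the activator median from -0.20 to -0.10. Psmb8 ran from -0.126 to 0.084 with 1 array left out and was 0.0013 after cyclic loess, Psmb9 from -0.078 to 0.065 and 0.0074 with array weights, Psmb10 from -0.21 to 0.029, and Psme2 from -0.039 to 0.077, with -0.015 after median centring and -0.0081 with array weights. No sign was seen that the replicate numbers pair the mice (correlations of 0.01, 0.08 and -0.02 between same-numbered arrays). Of 6 arrays, 2 correlated best with their own number. With 3 arrays per genotype, these values cannot exclude a pairing. With the replicate numbers as a block 10 members had an unadjusted p under 0.05, 1 was called, and 123 genes were called. The causes of these shifts were not tested.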
